A study of Mus musculus with 13 samples.

Results

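The 32 genes of cholesterol synthesis, its control by SREBP2 and sterol transport were followed in mature CD4 single-positive (CD4SP) thymocytes. They were taken by name, as 20 synthesis enzymes and 12 genes of control, transport and efflux, out of 35906 genes in the files. All 32 were present and all 32 passed the low-count filter of each comparison. RNA came from sorted CD69-MHCI+ cells, the most mature (M2) CD4SP stage, with 1 library per mouse and 13 libraries in all. Every mouse carried the Lm54 T cell receptor transgene on a Rag1-/- background, so that the cells shared a single receptor. CtslΔTEC mice lack cathepsin L, a lysosomal protease, in thymic epithelial cells through Foxn1-cre. Control mice are labelled Ctsl fl/fl (WT). Unstimulated cells came from 5 CtslΔTEC mice (mice 1 to 5) and 4 Ctsl fl/fl mice (mice 1 to 4). Cells of 2 other CtslΔTEC mice (mice 6 and 7) and 2 other Ctsl fl/fl mice (mice 5 and 6) were cultured for 4 h in serum-free HL-1 medium with plate-bound LLO:Iab, the peptide and MHC class II ligand of the receptor, at 1 µg/ml and soluble anti-CD28 at 250 ng/ml. Mice were on a C57BL/6J background, of both sexes and in general 8 to 12 weeks old.

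Cholesterol is built from acetyl-CoA through mevalonate and isoprenoid units to squalene, which is closed to lanosterol and trimmed to cholesterol. When membrane sterol is low, SCAP carries the transcription factor SREBP2 out of the endoplasmic reticulum and the genes of this route are switched on. INSIG1 and INSIG2 hold SCAP back when sterols are sufficient. Sterol derivatives instead activate the LXR nuclear receptors, whose targets Abca1 and Abcg1 export cholesterol. In T cells, activation is known to be accompanied by more sterol synthesis and less efflux, as the cells prepare to grow and divide.

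Depth was 25692380 to 39127833 estimated counts per unstimulated library and 8085463 (Ctsl fl/fl mouse 5) to 27184520 per stimulated one. T cell markers were present throughout, with Cd4 between 745 and 1156 CPM. The activation marker Cd69 was at 43.3 to 64.9 CPM before stimulation. After it, Cd69 was at 2670 to 2764 CPM in Ctsl fl/fl and 3279 to 3378 CPM in CtslΔTEC libraries. The activation marker Irf4 went the other way, at 2091 to 2131 and 1555 to 1610 CPM. The part of activation in the sterol differences between genotypes was not tested. Ctsl itself was at 6.31 to 8.84 CPM in unstimulated Ctsl fl/fl and 11.4 to 17.9 CPM in unstimulated CtslΔTEC thymocytes (log2 fold change 0.85, adjusted p = 0.0044, edgeR). The deletion is in the epithelium, so thymocyte Ctsl does not check the genotype. The summed CPM of the CD8 markers Cd8a and Cd8b1 was 31.5 to 39.2 in unstimulated Ctsl fl/fl and 141 to 186 in CtslΔTEC libraries, and after stimulation it was 11.3 to 11.4 and 46.0 to 48.4. The 5 markers of double-positive thymocytes summed to 20.2 to 36.0 CPM and 74.0 to 124.9 CPM in unstimulated cells. The part of these markers in the genotype differences below was not tested. All 5 unstimulated CtslΔTEC mice and only 1 of the 4 unstimulated Ctsl fl/fl mice (mouse 3) expressed the Y-linked gene Ddx3y, at 125 to 206 and 161 CPM, whereas each stimulated group had 1 mouse with and 1 without it. File dates differ between stimulated and unstimulated libraries, and the unstimulated libraries carry 2 dates, each with mice of both genotypes. Stimulation, 4 h of serum-free culture and date therefore cannot be told apart. In these bulk samples a change of RNA per cell and a change in the share of a cell type cannot be told apart either.

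Before stimulation the members spanned a wide range of levels, with synthesis enzymes near both ends. On the length-corrected TPM scale, the lysosomal sterol carrier Npc2 led in Ctsl fl/fl cells at 238 ± 12 TPM (SD, n = 4). Lbr, a C14 sterol reductase that is also a lamin receptor, followed at 131 ± 19.9 TPM, the LXRβ gene Nr1h2 at 104 ± 12.8 TPM and Srebf2, which encodes SREBP2, at 77.0 ± 1.86 TPM. Lbr and Nr1h2 did not differ beyond the sum of their spreads. At the other end, Abca1 was at 3.32 ± 2.34, Sqle at 2.71 ± 0.342, Hsd17b7 at 2.17 ± 0.365 and Idi1 at 1.80 ± 0.387 TPM, and the spread of Abca1 covered the other 3. After 4 h in Ctsl fl/fl cells Srebf2 led at 225 ± 8.83 TPM (SD, n = 2), followed by the farnesyl diphosphate synthase gene Fdps at 153 ± 60.7 TPM and Insig1 at 151 ± 49.9 TPM, while Npc2 had come down to 60.9 ± 3.38 TPM. The spreads of Fdps and Insig1 covered the means of Msmo1, Hmgcs1, Nr1h2, Cyp51 and Sqle, so the order after Srebf2 was not resolved. Sqle, which encodes squalene epoxidase, an oxygen-dependent control point of the route, had moved from near the bottom to 109 ± 31.5 TPM.

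The response to stimulation was first taken in Ctsl fl/fl cells, 2 stimulated against 4 unstimulated mice. Of the 20 enzymes, 12 rose, 5 fell and 3 did not pass the test, with a median log2 fold change of 1.47 against 0.01 over all 14241 genes tested. Across all genes 32.9% were called higher and 34.8% lower, so that changes in general were very frequent. Sqle was at 5.83, 6.49, 4.68 and 5.41 CPM in unstimulated mice 1 to 4 and at 297 and 177 CPM in stimulated mice 5 and 6. All stimulated values lay far above all unstimulated ones, a 42.1-fold rise (log2 5.40 ± 0.20, SE; adjusted p = 1.7e-11, edgeR). Cyp51, the lanosterol demethylase, was at 15.6, 19.5, 16.7 and 12.4 CPM before and 422 and 267 CPM after stimulation, a 21.4-fold rise (log2 4.42 ± 0.22, adjusted p = 2.9e-10). Insig1, the sterol sensor partner that is itself a SREBP2 target, went from 15.9, 15.1, 13.6 and 16.5 CPM to 360 and 195 CPM, which is 18.1-fold (log2 4.17 ± 0.17, adjusted p = 3.7e-11). Hsd17b7, a 3-keto sterol reductase, rose by a log2 of 3.73, the methyl oxidase Msmo1 by 3.31, lanosterol synthase Lss by 2.98 and HMG-CoA synthase Hmgcs1, which makes the substrate of mevalonate production, by 2.76. Smaller rises were found for squalene synthase Fdft1 (2.39), Fdps (2.34), the isopentenyl diphosphate isomerase Idi1 (2.07), the desaturase Sc5d (1.70), the phosphomevalonate kinase Pmvk (1.24) and the mevalonate decarboxylase Mvd (0.61). The call of Mvd rested on Ctsl fl/fl mouse 5, at 31.0 CPM, since mouse 6, at 16.7 CPM, lay below the highest unstimulated value of 17.5 CPM, and without mouse 5 its log2 fold change was 0.11 (adjusted p = 0.71).

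The enzymes did not move as a block. Lbr fell by 1.23 on the log2 scale and Tm7sf2, which encodes another C14 sterol reductase, fell by 1.01. Ggps1, whose product geranylgeranyl diphosphate leaves the sterol route for protein prenylation, fell by 0.74, the sterol isomerase gene Ebp fell by 0.62 and Dhcr7, which encodes the reductase of 7-dehydrocholesterol, fell by 0.33 (adjusted p = 0.064), a call lost without Ctsl fl/fl mouse 6 (-0.09) or mouse 3 (-0.29). The mevalonate kinase gene Mvk (-0.38), the thiolase gene Acat2 (0.12) and Nsdhl (0.20), which acts on C4 of the sterol, did not pass the test. Thus both C14 sterol reductases fell while Cyp51, the step before them, and Msmo1, a step after them, rose. About 12.1% of the exon bases of Tm7sf2 overlap Vps51 on the same strand, and 26.7% of those of Fdps overlap another annotated gene, so their counts may be split with these neighbours. Lss is also uncertain as a coding level, since protein-coding transcripts held only 46.6% of its TPM in stimulated Ctsl fl/fl cells (n = 2).

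Among the 12 other members, Srebf2 was at 255, 265, 260 and 247 CPM in unstimulated and 812 and 766 CPM in stimulated Ctsl fl/fl mice, a 3.07-fold rise (log2 1.62 ± 0.09, adjusted p = 9.0e-10), and its escort Scap rose by 0.85. Insig2 did not pass the test (log2 -0.35, adjusted p = 0.10). Of the carriers, Stard4, which moves sterol through the cytosol, rose by 1.78. The lysosomal exit genes Npc1 and Npc2 fell by 1.11 and fell by 1.81, and Soat1, which esterifies cholesterol for storage, fell by 1.48. Abcg1 fell by 1.62, Abca1 fell by 1.70 and Mylip, an LXR target that encodes a ubiquitin ligase of lipoprotein receptors, fell by 1.68, all on the log2 scale, while Nr1h2 rose by 0.35 (adjusted p = 0.027), but was not called without Ctsl fl/fl mouse 6 (0.28, adjusted p = 0.19). For Abca1 the groups overlapped, with unstimulated Ctsl fl/fl mouse 2 at 7.57 CPM and stimulated mouse 6 at 8.39 CPM. Its log2 standard error was 0.57, against 0.13 for Abcg1 and 0.11 for Mylip. Of the 12 genes, 5 rose, 6 fell and 1 did not pass, near the 32.9% higher and 34.8% lower among all genes.

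In CtslΔTEC cells, 2 stimulated against 5 unstimulated mice, the response was taken in the same way. Of the 20 enzymes 10 rose, 9 fell and 1 did not pass the test, with a median log2 fold change of 0.38, and 32.9% of all genes were called higher and 38.2% lower. Sqle was at 3.59, 3.41, 5.21, 4.41 and 3.19 CPM in mice 1 to 5 and at 130 and 136 CPM in stimulated mice 6 and 7, a 33.8-fold rise (log2 5.08 ± 0.19, adjusted p = 8.4e-12). Cyp51 rose by 3.93 and Insig1 by 3.20. Mvd was at 14.7, 10.8, 12.4, 10.5 and 11.4 CPM before and at 6.23 and 9.61 CPM after stimulation in CtslΔTEC cells and fell by 0.58 (adjusted p = 0.044), but was not called without CtslΔTEC mouse 6 (-0.33, adjusted p = 0.35). Mvk fell by 1.59, Dhcr7 fell by 1.35, Nsdhl fell by 0.66 and Acat2 fell by 0.61 (-0.38 and not called without CtslΔTEC mouse 6), and Pmvk did not pass the test (0.05). The 12 other members gave 5 risen and 6 fallen genes, again near the shares among all genes. Srebf2 rose by 1.71 and Scap by 0.93, while Npc2 fell by 2.37, Npc1 fell by 1.58, Abca1 fell by 2.74 and Abcg1 fell by 1.48. Both responses have their own unstimulated mice, and whether they differ was tested as the interaction given further down.

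**Figure D1:**
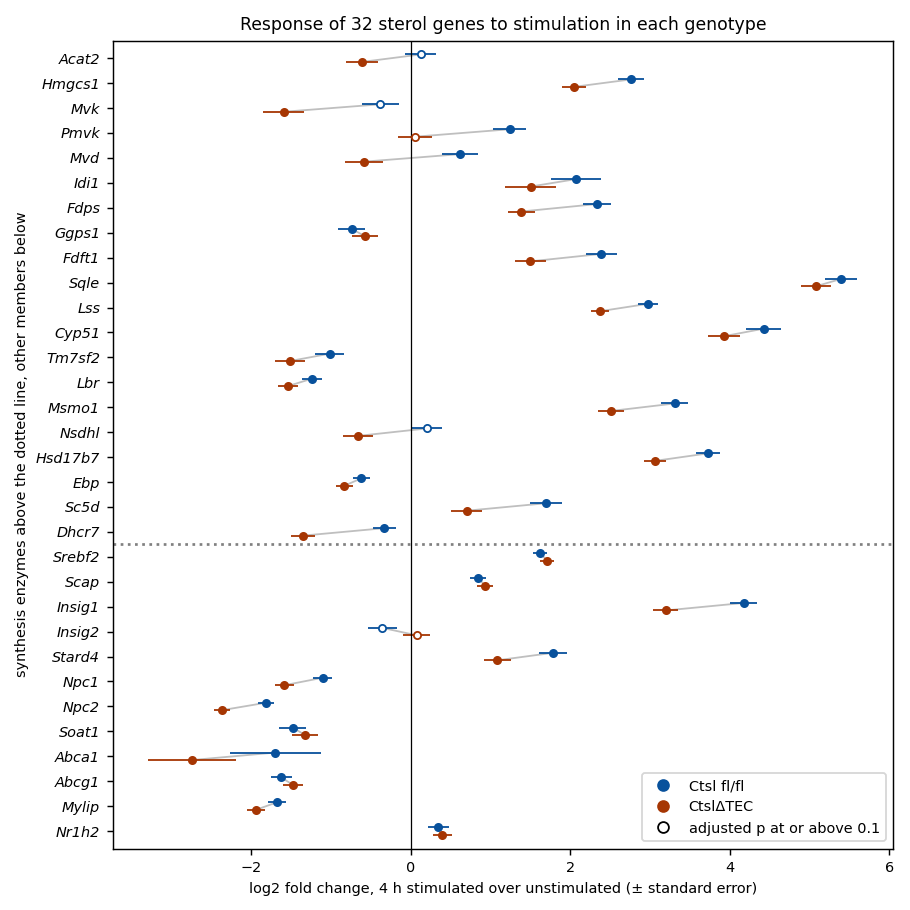
Log2 fold change of each of the 32 genes after 4 h of stimulation over unstimulated cells (x axis) in Ctsl fl/fl (blue) and CtslΔTEC (brown) thymocytes, with bars of 1 standard error and open circles for an adjusted p at or above 0.1. Sqle, Cyp51 and Insig1 lie farthest to the right, Lbr and Tm7sf2 to the left of 0, and most enzymes have the brown point to the left of the blue one.

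Promoter windows from RefSeq (GRCm38.p6, 250 bases before to 50 after the annotated start, 5′ to 3′ on the gene's strand) were available for 26 of the 32 members. They were searched on both strands for the CCAAT box, bound by NF-Y, which acts beside SREBP2 at many sterol genes, for GGGCGG, the GC box, and for TCACNCCAC, a form of the sterol regulatory element. CCAAT was found in 22 of the 26 members and in 41.1% of all 27025 genes with a window. By response, it was in 11 of the 13 members that rose in Ctsl fl/fl cells and in 8 of the 9 that fell, so that it did not part the risers from the others. GGGCGG was in 23 of the 26 members and 38.2% of all these genes. TCACNCCAC was in Hmgcs1 alone among the 26 members with a window and in 1.44% of all these genes. Sqle, Fdps, Fdft1, Stard4, Npc1 and Abcg1 had no window and were not searched. The windows of 4 genes that rose and of Abca1, which fell and has no CCAAT, are shown with CCAAT (or ATTGG, its complement) and TCACNCCAC in capitals. They lie at chr13:119690101-119690400 (plus strand) for Hmgcs1, chr5:4104648-4104947 (minus) for Cyp51, chr5:28071162-28071461 (plus) for Insig1, chr1:169969156-169969455 (minus) for Hsd17b7 and chr4:53159846-53160145 (minus) for Abca1.
Hmgcs1: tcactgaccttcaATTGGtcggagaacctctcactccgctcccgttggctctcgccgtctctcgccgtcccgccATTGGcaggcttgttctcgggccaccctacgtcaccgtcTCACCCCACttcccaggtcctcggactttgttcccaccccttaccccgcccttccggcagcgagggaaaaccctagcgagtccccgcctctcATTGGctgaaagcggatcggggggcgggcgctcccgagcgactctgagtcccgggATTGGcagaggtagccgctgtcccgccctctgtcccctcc
Cyp51: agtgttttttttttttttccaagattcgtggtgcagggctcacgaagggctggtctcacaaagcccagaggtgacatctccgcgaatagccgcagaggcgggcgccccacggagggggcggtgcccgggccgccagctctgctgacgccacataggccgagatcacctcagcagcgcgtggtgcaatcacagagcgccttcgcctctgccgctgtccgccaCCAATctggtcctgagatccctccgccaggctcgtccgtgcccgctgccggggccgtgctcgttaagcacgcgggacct
Insig1: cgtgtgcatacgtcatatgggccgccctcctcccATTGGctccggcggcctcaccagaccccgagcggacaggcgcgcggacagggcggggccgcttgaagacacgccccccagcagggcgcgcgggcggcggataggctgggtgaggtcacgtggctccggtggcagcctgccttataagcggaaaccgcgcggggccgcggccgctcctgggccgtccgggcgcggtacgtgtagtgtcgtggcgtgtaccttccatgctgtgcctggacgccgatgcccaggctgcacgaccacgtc
Hsd17b7: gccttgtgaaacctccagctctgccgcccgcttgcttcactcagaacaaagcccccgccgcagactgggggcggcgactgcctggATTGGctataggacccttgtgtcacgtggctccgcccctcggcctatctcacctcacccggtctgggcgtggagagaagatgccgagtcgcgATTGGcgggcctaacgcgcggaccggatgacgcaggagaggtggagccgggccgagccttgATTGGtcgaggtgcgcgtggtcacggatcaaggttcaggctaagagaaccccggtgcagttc
Abca1: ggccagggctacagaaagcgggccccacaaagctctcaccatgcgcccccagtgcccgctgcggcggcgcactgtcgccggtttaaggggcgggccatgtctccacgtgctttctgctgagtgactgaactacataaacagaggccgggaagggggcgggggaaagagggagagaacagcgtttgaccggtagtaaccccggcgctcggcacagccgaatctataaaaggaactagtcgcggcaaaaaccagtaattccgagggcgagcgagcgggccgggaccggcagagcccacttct
Hmgcs1 holds 4 CCAAT boxes and the single TCACNCCAC match, Hsd17b7 holds 3 CCAAT boxes, and Cyp51 and Insig1 hold 1 each. Such matches describe the letters of these windows only.

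The genotypes were then compared after stimulation, 2 CtslΔTEC against 2 Ctsl fl/fl mice. Synthesis enzymes were lower in CtslΔTEC cells at nearly every step. Of the 20, 16 were called lower and none higher by edgeR (0 higher also at an unadjusted p under 0.05 and by DESeq2), against 10.6% lower and 2.77% higher among all 14241 genes tested. The median log2 difference of the enzymes was -0.81 and that of all genes was -0.05. In 18 of the 20, both CtslΔTEC values lay below both Ctsl fl/fl values, which was the case for 30.2% of all genes, and 1 (Ggps1) had both above, as had 19.4% of all genes. The largest differences were those of Mvd, Mvk and Dhcr7, followed by Pmvk. Mvd was at 31.0 and 16.7 CPM in Ctsl fl/fl mice 5 and 6 and at 6.23 and 9.61 CPM in CtslΔTEC mice 6 and 7, which is 2.92-fold lower (log2 -1.55 ± 0.28, SE; adjusted p = 0.0035). Mvk was at 11.8 and 5.51 CPM against 3.16 and 2.85 CPM, 2.76-fold lower (log2 -1.46 ± 0.29, adjusted p = 0.0062). Pmvk was at 30.2 and 15.5 CPM against 9.84 and 9.17 CPM (log2 -1.24 ± 0.26, adjusted p = 0.0079). In each of these 3 genes the groups did not overlap, and Ctsl fl/fl mouse 5 stood well above mouse 6.

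Dhcr7, at the far end of the route, had the smallest adjusted p of all members. It was at 48.4 and 33.6 CPM in Ctsl fl/fl and at 13.5 and 19.2 CPM in CtslΔTEC cells, 2.46-fold lower (log2 -1.30 ± 0.18, adjusted p = 0.00049). Protein-coding transcripts held 94.3% of its TPM in the stimulated Ctsl fl/fl and 72.7% in the stimulated CtslΔTEC libraries. Fdps was at 161 and 83.9 CPM against 56.0 and 63.7 CPM (log2 -1.02 ± 0.21, adjusted p = 0.0068). Log2 differences between -0.99 and -0.52 were found for Fdft1, Hmgcs1, Sc5d, Sqle, Nsdhl, Cyp51, Msmo1, Acat2, Hsd17b7, Tm7sf2 and Lss, all of them called. Idi1 (-1.06, adjusted p = 0.11), Ebp (-0.36), Lbr (-0.02) and Ggps1 (0.13) did not pass the test. The strongest risers were thus not the genes with the largest genotype difference, as Sqle differed by -0.83 and Cyp51 by -0.77.

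Among the other 12 members 4 were lower, 1 was higher and 7 did not pass the test, against 10.6% lower and 2.77% higher among all genes. Insig1 was at 360 and 195 CPM in Ctsl fl/fl and at 167 and 169 CPM in CtslΔTEC cells (log2 -0.72 ± 0.20, adjusted p = 0.032). Stard4 was lower by a log2 of -0.60, Npc2 by -0.59 and Npc1 by -0.51. Srebf2 was at 812 and 766 CPM against 626 and 673 CPM and did not pass the test (-0.28, adjusted p = 0.14). Abcg1 was the member called higher, at 48.4 and 61.8 CPM in Ctsl fl/fl and 90.9 and 77.0 CPM in CtslΔTEC cells (log2 0.60 ± 0.15, adjusted p = 0.019). Abca1 was at 6.22 and 8.39 CPM against 18.8 and 15.8 CPM, without overlap, but its log2 difference of 1.19 ± 0.64 did not pass (adjusted p = 0.29).

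The size of the enzyme difference rested on single libraries. Ctsl fl/fl mouse 5 had the highest value of the 4 stimulated libraries for 19 of the 20 enzymes, and mouse 6 was above both CtslΔTEC libraries for 18. Mouse 5 was also the shallowest library, and retained-intron transcripts took 7.82% of its TPM against 10.5% to 11.4% in the other 3, whose part in the difference was not tested. When all libraries were thinned to its depth, 15 enzymes were called with a median of -0.77. Without mouse 5 the median difference was -0.45 with 5 enzymes called, and without Ctsl fl/fl mouse 6 it was -1.14 with 16 called. Leaving out CtslΔTEC mouse 6 left 6 and leaving out CtslΔTEC mouse 7 left 9 enzymes called. Mvk, Pmvk, Mvd, Fdps, Dhcr7 and Npc2, 6 members in all, were called each time. Abcg1 was not called without Ctsl fl/fl mouse 5 or CtslΔTEC mouse 6, Npc1 was not called without CtslΔTEC mouse 6, and Insig1 and Stard4 were called only when Ctsl fl/fl mouse 6 was the one left out. Between the 2 stimulated mice without Ddx3y (CtslΔTEC mouse 6 and Ctsl fl/fl mouse 5) the median enzyme difference was -1.20, and between the 2 mice with it (CtslΔTEC mouse 7 and Ctsl fl/fl mouse 6) it was -0.41, with 19 and 18 of the 20 lower. The 2 Ctsl fl/fl mice themselves differed by a median of -0.66 (mouse 6 minus mouse 5) and the 2 CtslΔTEC mice by 0.05.

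**Figure D2:**
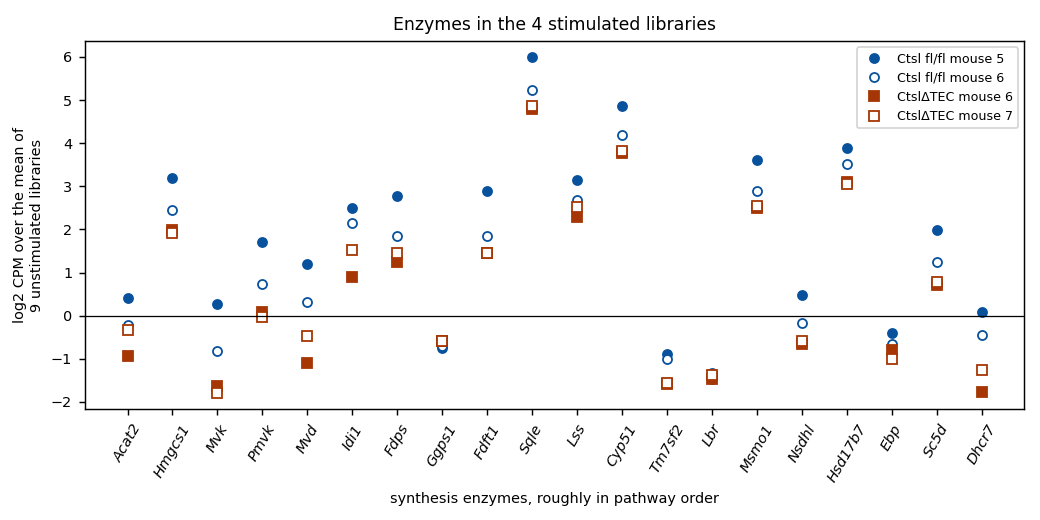
Each point is the log2 CPM of an enzyme in 1 of the 4 stimulated libraries minus the log2 of its mean CPM over the 9 unstimulated libraries (y axis), for the 20 enzymes roughly in pathway order (x axis). Ctsl fl/fl mouse 5 (filled circles) is highest for 19 enzymes, mouse 6 (open circles) lies between it and the CtslΔTEC mice (squares) for most, and Ggps1 and Lbr show little spread.

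**Figure D3:**
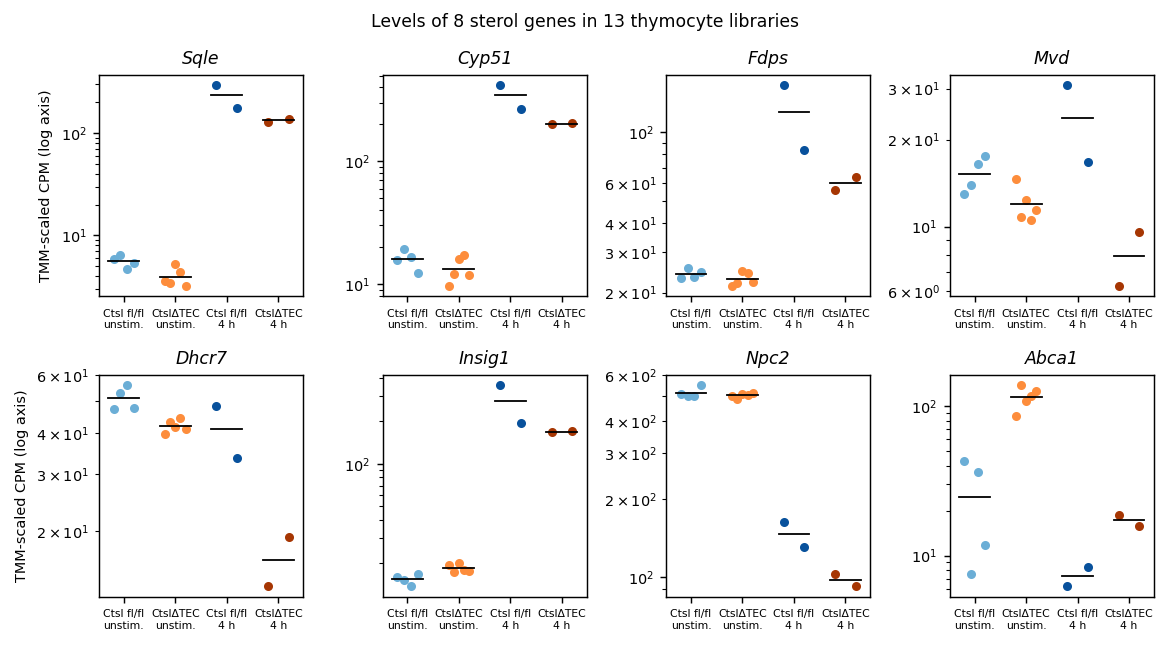
TMM-scaled CPM on a log axis of 8 members in each library, with a line at the mean of each group. Sqle, Cyp51, Fdps and Insig1 rise after 4 h in both genotypes and are then lower in CtslΔTEC cells, Mvd and Dhcr7 are lowest in stimulated CtslΔTEC cells, Npc2 falls in both, and Abca1 is highest in the 5 unstimulated CtslΔTEC mice.

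Whether the response itself differed between genotypes was asked with the interaction of genotype and stimulation, that is, the CtslΔTEC response minus the Ctsl fl/fl response. Of the 20 enzymes 9 had a lower response in CtslΔTEC cells and none a higher one by edgeR (0 higher also at an unadjusted p under 0.05 and by DESeq2), against 4.88% and 1.13% of all genes, with a median interaction of -0.73 against -0.06. These were Mvk (-1.21), Mvd (-1.20), Pmvk (-1.19), Dhcr7 (-1.02), Sc5d (-0.996), Fdps (-0.95), Nsdhl (-0.86), Msmo1 (-0.80) and Lss (-0.61), with adjusted p from 0.017 (Dhcr7) to 0.099 (Msmo1). Among the other members Insig1 (-0.98 ± 0.24, adjusted p = 0.039) and Npc2 (-0.56 ± 0.13, adjusted p = 0.032) passed. Sqle and Cyp51, the enzymes that rose most, did not pass, with Sqle at -0.32 ± 0.28 (adjusted p = 0.66) and Cyp51 at -0.49 ± 0.31 (adjusted p = 0.48), nor did Srebf2 (0.09 ± 0.13, adjusted p = 0.81) or Abcg1 (0.14 ± 0.17, adjusted p = 0.77). No member was called in every one of the 13 fits that left out a library. Without CtslΔTEC mouse 6 no enzyme was called, without Ctsl fl/fl mouse 5 only Dhcr7, and without unstimulated CtslΔTEC mouse 3 only Dhcr7. With unstimulated libraries of the second date only, 2 enzymes were called. The median of the enzymes ranged from -1.05 to -0.41 over these fits.

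In unstimulated cells, 5 CtslΔTEC against 4 Ctsl fl/fl mice, few enzymes passed the test, and the difference of Abca1 was the largest of the 32. Among the 20 enzymes 1 was called higher and 2 lower, against 6.42% and 8.36% of all 13152 genes tested, with a median log2 difference of -0.08. Dhcr7 was at 47.3, 53.1, 56.1 and 47.5 CPM in Ctsl fl/fl and at 39.7, 43.2, 41.8, 44.3 and 41.0 CPM in CtslΔTEC mice, without overlap (log2 -0.28 ± 0.07, adjusted p = 0.027). Sqle was lower by -0.50 (adjusted p = 0.085) and Lbr higher by 0.29 (adjusted p = 0.081), both with overlapping groups. Dhcr7 was the only enzyme lower in every CtslΔTEC than in every Ctsl fl/fl library, as were 7.92% of all genes, and no enzyme was higher in every one, as were 5.95%.

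Abca1, the LXR-driven cholesterol exporter, was at 42.7, 7.57, 36.1 and 11.7 CPM in Ctsl fl/fl mice 1 to 4 and at 85.4, 139, 108, 117 and 126 CPM in CtslΔTEC mice 1 to 5. The groups did not overlap, and the Ctsl fl/fl mice spread widely among themselves. The difference was 4.71-fold (log2 2.23 ± 0.43, adjusted p = 0.0057). Abcg1 was at 191, 166, 178 and 147 CPM against 224, 245, 223, 217 and 256 CPM, again without overlap (log2 0.45 ± 0.08, adjusted p = 0.0046). Macrophages are rich in both transporters, and the 9 myeloid markers summed to 11.6 to 18.4 CPM in unstimulated Ctsl fl/fl and 12.8 to 17.6 CPM in unstimulated CtslΔTEC libraries, with 2 and 4 of the 9 at a mean of 1 CPM or more, and the macrophage receptor gene Csf1r was at 0.194 to 0.491 and 0.303 to 1.40 CPM. The part of myeloid cells in the difference was not tested.

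Of the SREBP2 controls, Srebf2 was lower in CtslΔTEC cells, at 220, 179, 211, 201 and 181 CPM against 255, 265, 260 and 247 CPM (log2 -0.37 ± 0.07, adjusted p = 0.0072). Insig1 was higher, at 19.2, 17.2, 20.1, 17.7 and 17.6 CPM against 15.9, 15.1, 13.6 and 16.5 CPM (log2 0.26 ± 0.08, adjusted p = 0.073). Both were without overlap. Scap, Insig2, Stard4, Npc1, Npc2, Soat1, Mylip and Nr1h2 did not pass the test, with log2 differences between -0.07 and 0.15. Dhcr7, Srebf2, Abca1 and Abcg1 were called in each of the 9 fits that left out a mouse, whereas Sqle, Lbr and Insig1 were each called in 2 of the 9. With Y-linked expression as a covariate, which leaves only Ctsl fl/fl mouse 3 to part it from genotype, the log2 difference was 1.59 for Abca1 (adjusted p = 0.43), 0.38 for Abcg1 (adjusted p = 0.31) and -0.38 for Srebf2 (adjusted p = 0.22), and that of Dhcr7 was -0.42 (adjusted p = 0.090). Sex and genotype can thus hardly be told apart in unstimulated cells.

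**Figure D4:**
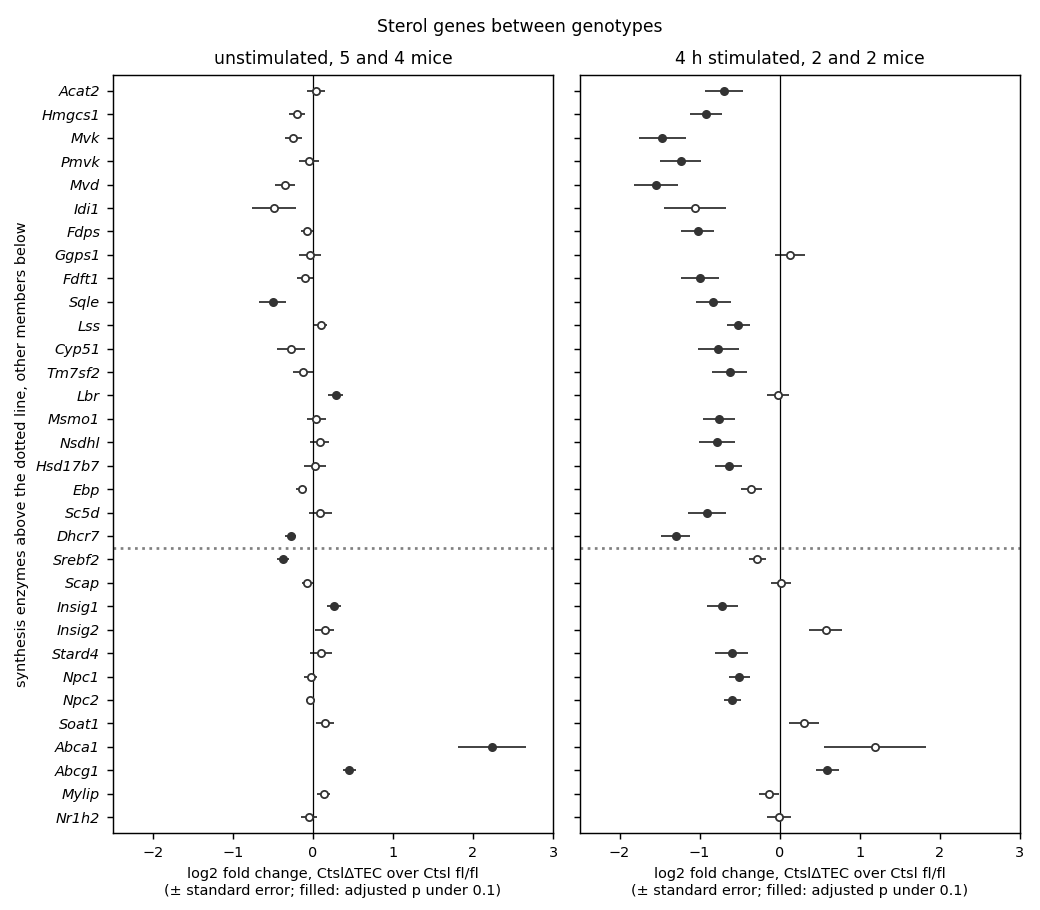
Log2 fold change of CtslΔTEC over Ctsl fl/fl (x axis) with bars of 1 standard error for each member in unstimulated cells (left) and after 4 h (right), filled where the adjusted p is under 0.1. On the left most enzymes lie near 0 and Abca1 stands at 2.23, and on the right 19 of the 20 enzymes lie below 0.

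Set against each other, synthesis and efflux genes placed the 4 groups apart. The mean log2 CPM of the 20 enzymes was 4.18 to 4.30 in unstimulated Ctsl fl/fl and 4.02 to 4.25 in unstimulated CtslΔTEC libraries, with overlap, and that of Abca1 and Abcg1 was 5.15 to 6.50 and 7.11 to 7.53. Synthesis minus efflux was -2.26 to -0.85 and -3.44 to -3.02, a value that is not corrected for gene length and can be read only between libraries, not as more or less of either set. After stimulation it was 1.85 and 0.86 in Ctsl fl/fl mice 5 and 6 and -0.56 and -0.19 in CtslΔTEC mice 6 and 7. In both states the CtslΔTEC libraries were lower, before stimulation through the efflux genes and after it through both sets.

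**Figure D5:**
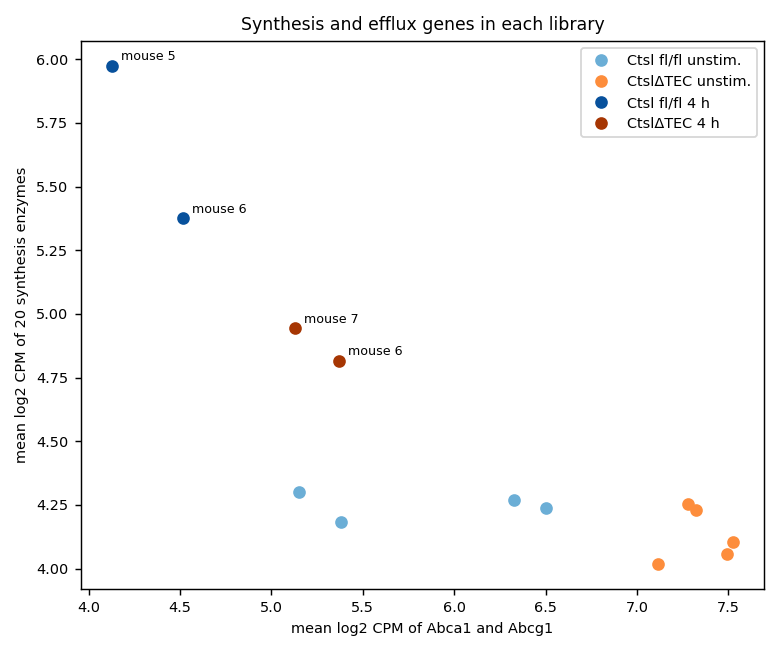
Mean log2 CPM of the 20 synthesis enzymes (y axis) against that of Abca1 and Abcg1 (x axis), 1 point per library. Unstimulated CtslΔTEC libraries lie to the right at 7.11 to 7.53 and stimulated Ctsl fl/fl libraries at the top left, with the stimulated CtslΔTEC libraries between them and the unstimulated ones.

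Neighbouring genes of the pathway were counted from 2 further lists. Of 25 other sterol genes, 22 were tested after stimulation. In the response, 14 rose and 5 fell in Ctsl fl/fl cells (32.9% and 34.8% of all genes) and 13 rose and 7 fell in CtslΔTEC cells (32.9% and 38.2%). Gramd1b, which carries sterol from the plasma membrane to the endoplasmic reticulum, rose by a log2 of 3.99 ± 0.11 in Ctsl fl/fl cells, and Lipa, the lysosomal lipase that frees cholesterol from its esters, fell by 2.45. Between stimulated genotypes 6 were lower and 1 higher in CtslΔTEC cells (10.6% and 2.77% of all genes), among them Scarb1, the HDL receptor (-1.33 ± 0.22, adjusted p = 0.0019), and Lipa (-0.85 ± 0.19, adjusted p = 0.011). Before stimulation 2 were higher and 3 lower of 21 tested, near the 6.42% and 8.36% of all genes, with Scarb1 at -0.87 (adjusted p = 0.00027) and Mbtps1, the site-1 protease that cleaves SREBP2, at 0.31 (adjusted p = 0.0053). The 16 users of isoprenoids take farnesyl or geranylgeranyl groups from the same route. None of them passed the edgeR test between stimulated genotypes (0 also by DESeq2, and 1 higher and 3 lower at an unadjusted p under 0.05), with log2 differences from -0.39 to 0.38 and a median of 0.05, where 10.6% of all genes were lower and 2.77% higher. So small a list leaves that count near the background, and the difference from the enzymes was not tested. They did respond, with 9 risen and 4 fallen in Ctsl fl/fl cells and 9 and 3 in CtslΔTEC cells, for example Pdss1, which builds the tail of ubiquinone, by 1.87 and 2.35. In unstimulated cells 1 was higher (Fntb, 0.21) and 1 lower (Dhdds, -0.27).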

How the data were processed

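RNA sequencing of sorted M2 CD4SP thymocytes was analysed in 13 libraries, each from 1 mouse, grouped by the sample labels. The authors quantified transcripts with kallisto 0.48 (the index is given as Ensembl 106 in the study's methods) and deposited, for every transcript, its estimated count, TPM and effective length. The labels call the RNA polyadenylated, whereas the methods describe rRNA depletion, and control mice are written both as Ctsl fl/fl and as wild type. Of 117497 transcripts, 116397 were paired with a gene through GENCODE M21 (GRCm38), which is not the authors' release. The 1100 others took at most 0.461% of counts. Estimated counts were summed to genes and rounded. The 32 members, the further lists and the motifs were chosen with earlier results of these data known.

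Genes were tested in R 4.3.3 by edgeR 4.0.16 (quasi-likelihood, TMM, filterByExpr) with Benjamini-Hochberg adjustment over all genes and a threshold of 0.1, as in the study. The unstimulated comparison used 9 libraries and the others a 4-group model of all 13. The standard error was the log2 fold change over the square root of F. CPM are TMM-scaled, and mean log2 CPM used a prior count of 2. Levels of different genes were compared on the deposited TPM, and the difference between synthesis and efflux genes on log2 CPM was read only between libraries. All 32 members are named, with at most 3 genes by smallest p from each further list, and Ctsl, Cd4, Cd8a, Cd69 and Ddx3y as checks. Marker lists and the genes Csf1r, Cd8b1 and Irf4 came from general knowledge. Fits were run on simulated counts with known changes, the same spread for every gene and no sex or date effect. That checked the calculation and not the calls made in these data. Alternatives comprised DESeq2 1.42.0, other normalizations, filters, covariates and subsets of libraries. Counting protein-coding transcripts alone was added after seeing the data.

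The shallowest stimulated library held 8085463 estimated counts, which limits low genes such as Idi1 and Mvk. With 2 mice per stimulated group the spread is estimated largely from the unstimulated mice.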

Additional observations from a re-analysis of the deposited data

Results flagged for a closer look

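In 6 of 64 groups of mice examined (32 members in unstimulated Ctsl fl/fl and CtslΔTEC mice) a single mouse stood far from the others of its group, where about 3.2 are reached by chance at 1 in 20. Ctsl fl/fl mouse 4 was low in 3 of them. It had 234 CPM of Lbr against 294 to 306 in the other 3 mice, 25.2 CPM of Sc5d against 33.8 to 35.8, and 62.4 CPM of Npc1 against 77.8 to 80.7. CtslΔTEC mouse 1 was high in Mvk, at 10.8 CPM against 8.30 to 8.88, and in Nr1h2, at 115 CPM against 83.3 to 89.6. CtslΔTEC mouse 4 was low in Nsdhl, at 8.45 CPM against 10.6 to 11.5.

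The response to stimulation differed between the genotypes for 11 members by the interaction term of edgeR. The log2 interaction was -1.21 for Mvk (adjusted p = 0.064), -1.20 for Mvd (0.062), -1.19 for Pmvk (0.048), -1.02 for Dhcr7 (0.017), -0.996 for Sc5d (0.078), -0.98 for Insig1 (0.039), -0.95 for Fdps (0.051), -0.86 for Nsdhl (0.097), -0.80 for Msmo1 (0.099), -0.61 for Lss (0.078) and -0.56 for Npc2 (0.032). All 11 terms were negative, that is, the log2 response and not always the level was lower in CtslΔTEC cells. None was called in each of the 13 fits that left out 1 library.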

How the results depend on the processing

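Over 30 alternative settings no member changed direction in a way that reversed a call, and of 3264 values of single members 2987 stayed on their side of the threshold, 209 fell short of it and 68 passed it anew. Enzymes called in unstimulated cells numbered 3, and 1 without the low-count filter, 1 with the Y-linked covariate, 1 at an adjusted p under 0.05, 5 with date as a factor, and 1 to 4 when a mouse was left out. The 4 other members called there became 0 with the Y-linked covariate. Mouse numbers did not pair the samples (correlations of deviations -0.157, 0.352, -0.098 and -0.142 for mice 1 to 4). With the replicate block 0 enzymes were called. The 16 enzymes called between stimulated genotypes became 5 to 16 and their median -1.14 to -0.45 when a library was left out, and the 5 other members 1 to 5. The median response in Ctsl fl/fl cells ranged from 0.99 to 1.83. The 9 enzymes of the interaction became 5 with DESeq2 size factors, 5 with protein-coding transcripts alone (added after seeing the data), 2 with unstimulated libraries of the second date only, 2 at an adjusted p under 0.05, 12 each with DESeq2, with library totals alone and without the low-count filter, and 0 to 13 without a library, with medians of -1.05 to -0.41. The 2 other members of the interaction became 1 after thinning and 0 to 3 without a library. The cause of these changes was not tested.

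Among all genes, the 1943 called in unstimulated cells became 430 with the Y-linked covariate and 1051 with the replicate block. The 1898 called between stimulated genotypes became 1127 in the 4 stimulated libraries alone and 945 without CtslΔTEC mouse 6, and the 856 of the interaction became 471 at an adjusted p under 0.05 and 334 without that mouse. With library totals in place of TMM, 56.8% instead of 43.4% of the calls in unstimulated cells were higher, and the all-gene median of the CtslΔTEC response moved from -0.06 to -0.21. For the interaction, 29.7% of the calls were higher with DESeq2, 33.9% with unstimulated libraries of the second date only and 18.8% in the main test.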
